A study of Mus musculus with 18 samples.

Results

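Nascent transcription of 9 genes of the Nodal pathway (Nodal, Lefty1, Lefty2, Tdgf1, Cer1, Foxh1, Smad2, Smad3 and Acvr2b) was described in E14 murine embryonic stem (ES) cells. The genes were taken by symbol from the deposited gene table, in which they are 9 of 21859 genes, and from the table of promoter upstream transcripts (PROMPTs), in which they are 9 of 32253 entries. TT-seq, which purifies RNA that took up 4-thiouridine (4sU) during a short pulse, here 5 min, was performed on 18 libraries. There were 6 conditions with 3 libraries in each. Untagged cells and the tagged lines SPT16_AID_V5_Clone1 and SPT16_AID_V5_Clone2 received, for 24 h, either ethanol (EtOH) or 3-IAA, which is an auxin. SPT16 is a subunit of the histone chaperone FACT, and its auxin-inducible degron (AID) tag leads to degradation of the protein when auxin and the plant F-box protein osTIR1 are present. All cells, the untagged cells included, carried osTIR1, were grown without feeders in serum, LIF and inhibitors of MEK and GSK, and were left undisturbed for 48 h before treatment. Each tagged line is 1 clone. For both 3-IAA and 4sU the labels and the methods print the number 500 with different units, so no concentration is given here.

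The only value used here for each gene is the authors' mean of the normalized read count over all libraries. It averages the 6 libraries of tagged clones with 3-IAA and the 12 other libraries, so the levels below are those of the whole set, and neither an effect of SPT16 depletion nor a spread over libraries can be read from them. That all 18 libraries enter the mean was read from the table itself. For features covered by a single read, the mean takes a value set by the size factor that divides the counts of the library holding this read. The gene table showed 18 distinct values of this kind (0.0216 to 0.115), and so did the PROMPT table (0.0266 to 0.129), 18 in number. They bound the reads behind each level and give the 95% counting intervals quoted below, which leave out the spread between cultures. The highest gene value, used for every gene interval, recurred in only 10 genes. When a value had to recur 0.1 rather than 0.06 times as often as the commonest one, 17 were found for genes and 18 for PROMPTs. Of the markers used to check the cell type, all 8 for ES cells lay above the median of genes with reads, with levels from 5985 to 64437, and none of 5 fibroblast markers did, with levels from 0.119 to 25.7. Supt16, which encodes SPT16, had a level of 12729, which checks no label, since the degron acts on the protein and the value pools all conditions.

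Nodal is a secreted ligand of the TGF-beta family that specifies mesendoderm and the left-right axis in the embryo and is also made by pluripotent cells. It binds activin receptors, among them the type II receptor ACVR2B, together with the membrane-anchored co-receptor TDGF1 (also known as CRIPTO). The receptors phosphorylate SMAD2 and SMAD3, which enter the nucleus with SMAD4 and act on chromatin with partners such as FOXH1. Lefty1, Lefty2 and Cer1 encode secreted antagonists, and Nodal, Lefty1 and Lefty2 are themselves known targets of the pathway in the embryo, which gives it both positive and negative feedback.

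The windows before the transcription start are shown for the ligand, for the co-receptor and for Cer1, because these genes stood at the upper and lower ends of the levels below. Each holds the 250 bases before the RefSeq start in GRCm38.p6, read along the strand of the gene, and capitals mark CAGAC, the SMAD box, on either strand.
Nodal promoter, chr10:61417722-61417971, plus strand: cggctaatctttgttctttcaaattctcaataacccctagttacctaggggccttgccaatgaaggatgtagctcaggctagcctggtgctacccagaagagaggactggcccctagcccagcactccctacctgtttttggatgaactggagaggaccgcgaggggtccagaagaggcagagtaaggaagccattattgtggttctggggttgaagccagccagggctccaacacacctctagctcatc
Tdgf1 promoter, chr9:110946159-110946408, minus strand: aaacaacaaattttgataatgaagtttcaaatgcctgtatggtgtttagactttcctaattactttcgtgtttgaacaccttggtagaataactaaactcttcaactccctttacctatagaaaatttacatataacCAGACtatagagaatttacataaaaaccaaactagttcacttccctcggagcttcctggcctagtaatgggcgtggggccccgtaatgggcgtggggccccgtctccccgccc
Cer1 promoter, chr4:82885152-82885401, minus strand: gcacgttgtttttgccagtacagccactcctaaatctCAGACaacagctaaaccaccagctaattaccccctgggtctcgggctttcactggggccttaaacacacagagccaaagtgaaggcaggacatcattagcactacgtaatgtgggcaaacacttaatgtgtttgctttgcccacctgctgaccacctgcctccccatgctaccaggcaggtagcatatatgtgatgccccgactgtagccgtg

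In these windows extended by the 50 bases after the start, the table of RefSeq promoters had an entry for 5 of the 9 genes (Nodal, Tdgf1, Cer1, Smad3 and Acvr2b). The Tdgf1 and Cer1 windows each held 1 SMAD box, and the Nodal window held none. Among the 5 windows 3 held CAGAC on either strand, the third being that of Acvr2b, beside 49.5% of 32544 windows of all genes. GGCGC, a GC-rich SMAD site, occurred 3 times in the Acvr2b window and in no other of the 5, beside 37.1% of all windows. Neither the FOXH1 motif TGTGNATT (3.62% of all windows), the octamer ATGCAAAT (1.75%) nor the TATA box TATAAA (13.6%) was found in any of the 5. The motifs do not overlap one another in these windows, and the search read both strands. GC content was 54.0% for Nodal, 41.7% for Tdgf1 and 51.7% for Cer1, beside a median of 53.0% for all windows, and reached 67.7% for Smad3 and 73.3% for Acvr2b. The Smad3 and Acvr2b windows held 25 and 27 CpG dinucleotides, beside 5 to 7 in the other 3 and a median of 7 over all windows. A match to these letters is a description and not a bound site.

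Nodal, the ligand, was among the more strongly transcribed genes. It lies at chr10:61417972-61425338 on the plus strand, with 3 exons. Its level was 4332 (95% counting interval 4288 to 4376), at the 80.9th percentile of the 20157 genes with reads. Its level per kb of exons was 2068, at the 93.8th percentile, and per kb of gene span 588, at the 97.8th percentile. The gene is short, with 2095 bp of exons in a span of 7367 bp, so the percentile rises when length is taken into account. As in any bulk measurement, fewer transcribing cells and less RNA per cell cannot be told apart in these levels.

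The antagonists fell into 2 ranges. Lefty2 (chr1:180893108-180899103, plus strand) had a level of 1110, with a counting interval of 1088 to 1132, at the 60.9th percentile. Lefty1 (chr1:180935022-180938400, plus strand) had a level of 467.9, with an interval of 453.6 to 482.5, at the 51.1st percentile. Per kb of exons Lefty2 was at 425 and Lefty1 at 266, so the Lefty2 level was 1.60 times that of Lefty1, and per kb of span, at 185 and 138, it was 1.34 times. Nodal exceeded both, at 4.87 times Lefty2 and 7.77 times Lefty1 per kb of exons, and at 3.18 and 4.25 times per kb of span.

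Cer1 (chr4:82881751-82885148, minus strand), an antagonist known from the anterior endoderm of the embryo, was at the floor of the assay. Its level was 0.645, with a counting interval of 0.226 to 1.44, at the 10.4th percentile. Between 5.59 and 29.9 reads over all 18 libraries can give this value, and the gene was thus close to undetected at this depth. None of the 6 markers of primitive streak and mesoderm, Cer1 included, lay above the median gene by level, with values from 0.645 to 207.5, while T and Eomes lay just above it per kb of span, at the 51.7th and 51.5th percentiles. Of 6 markers of primitive endoderm, 1 lay just above the median gene by level, at the 50.8th percentile. None did per kb of exons or of span, where the same marker was at the 49.7th and 40.1st percentiles.

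Tdgf1, the co-receptor, had a level of 6595, with a counting interval of 6541 to 6649, at the 87.2nd percentile. The gene lies at chr9:110939603-110946158 on the minus strand. Per kb of exons it was the most strongly transcribed of the 9 genes, at 2515 and the 95.7th percentile, and per kb of span, at 1006 and the 98.9th percentile, it was so again. Tdgf1 also serves as a marker of ES cells, and Pou5f1, which encodes the pluripotency factor OCT4, was at 3374 per kb of exons, 1.34 times Tdgf1. Acvr2b, the type II receptor (chr9:119402118-119434995, plus strand), had a level of 3018, with an interval of 2982 to 3055, at the 75.6th percentile. It was at 768 per kb of exons and at 91.8 per kb of span. An annotated transcript overlaps Acvr2b on the opposite strand, and the reads were counted by strand.

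The effectors Smad2 and Smad3 had the highest and the third highest deposited values of the 9 genes, and both genes are long. Smad2 (chr18:76241580-76310963, plus strand) had a level of 12255, with an interval of 12181 to 12328, at the 94.2nd percentile. Smad3 (chr9:63646767-63757994, minus strand) had a level of 6253, with an interval of 6200 to 6305, at the 86.4th percentile. Introns make up 87.3% of the Smad2 span of 69384 bp and 95% of the Smad3 span of 111228 bp. Per kb of exons Smad2 was at 1396 and Smad3 at 1128, and Smad2 exceeded Smad3 by 1.24 times. Per kb of span they were at 177 and 56.2, and Smad2 exceeded Smad3 by 3.14 times.

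Foxh1, the DNA-binding partner of the SMADs, lies at chr15:76668225-76669948 on the minus strand and is the shortest of the 9 genes, with a span of 1724 bp. Its level was 400.0, with an interval of 386.8 to 413.5, at the 49.4th percentile, just under the median gene. It was at 293 per kb of exons, at the 61.4th percentile, and at 232 per kb of span, at the 89.5th percentile. Of all 9 genes its position therefore depended most on the scale together with Smad3, which exceeded Foxh1 3.85 times per kb of exons and was 0.242 times Foxh1 per kb of span.

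**Figure D1:**
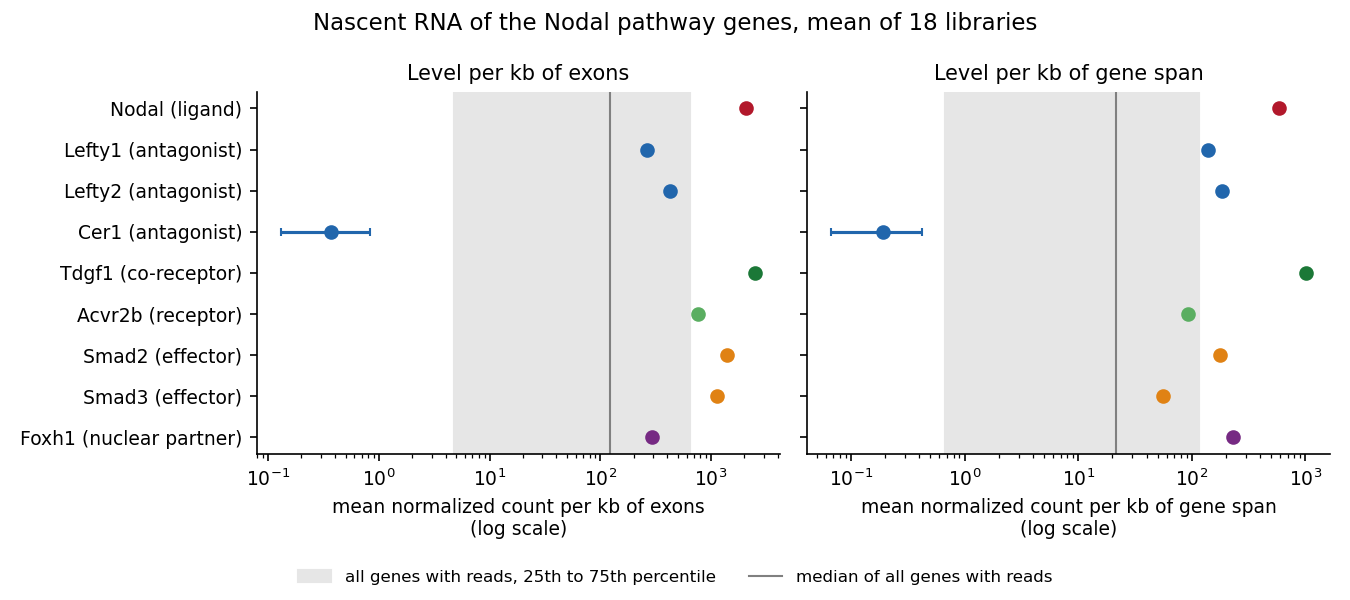
Level of the 9 Nodal pathway genes, as the authors' mean normalized count over 18 libraries, per kb of exons (left) and per kb of gene span (right), on log axes. Bars are 95% counting intervals and are mostly smaller than the points, the grey band holds the middle part of all genes with reads from the 25th to the 75th percentile, and the line is their median. Tdgf1 and Nodal lead on both scales, and Cer1 lies far below the other genes.

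Per kb of exons, 8 of the 9 genes lay above the median of genes with reads, and 6 above that of genes with a level of at least 10. The order from the highest level per kb of exons was Tdgf1, Nodal, Smad2, Smad3, Acvr2b, Lefty2, Foxh1, Lefty1 and Cer1. Per kb of span it was Tdgf1, Nodal, Foxh1, Lefty2, Smad2, Lefty1, Acvr2b, Smad3 and Cer1. Tdgf1, Nodal and Cer1 held the same places in both orders. The counting intervals of neighbours did not overlap in either order, yet neighbours differed by as little as 1.10 times (Foxh1 over Lefty1, per kb of exons) and 1.05 times (Lefty2 over Smad2, per kb of span). Since the spread over libraries is not known, such small steps are not shown to exceed it. Whether intronic reads were counted is not given in the sources used here, and nascent RNA holds introns, so both scales are given. Over the 15428 genes with a level of at least 10 and a length, the level per kb of exons had a median of 180 in the 25% of genes with the least intron and 253 in the 25% with the most, while the level per kb of span had medians of 98.2 and 10.5. Across genes, the level per kb of exons thus varied less with the share of intron than that per kb of span. The groups were formed by the ratio of span to exons, which also links the scales, so this difference is partly fixed in advance. It cannot tell whether intronic reads were counted.

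Reads were kept only where they aligned to 1 place in the genome, which bears on genes with close copies. Lefty1 and Lefty2 are neighbours on chromosome 1, with 35918 bp between the end of Lefty2 and the start of Lefty1. Their coding sequences, 1104 bases each in Gencode vM21, aligned without gaps and were 91.8% identical, with 90 differing bases. Of these, 57 lay in the first 276 bases, where identity was 79.3%, and 33 in the 828 bases that follow, where it was 96.0%. The coding stretch of 60 bases with the most differences, 18, is shown for both genes, with the differing bases in capitals, since reads from here can be told apart.
Lefty1, chr1:180935143-180935202, plus strand: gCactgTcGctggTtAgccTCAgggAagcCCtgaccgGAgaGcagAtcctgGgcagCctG
Lefty2, chr1:180893217-180893276, plus strand: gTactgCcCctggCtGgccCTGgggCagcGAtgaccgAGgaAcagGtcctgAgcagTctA

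**Figure D2:**
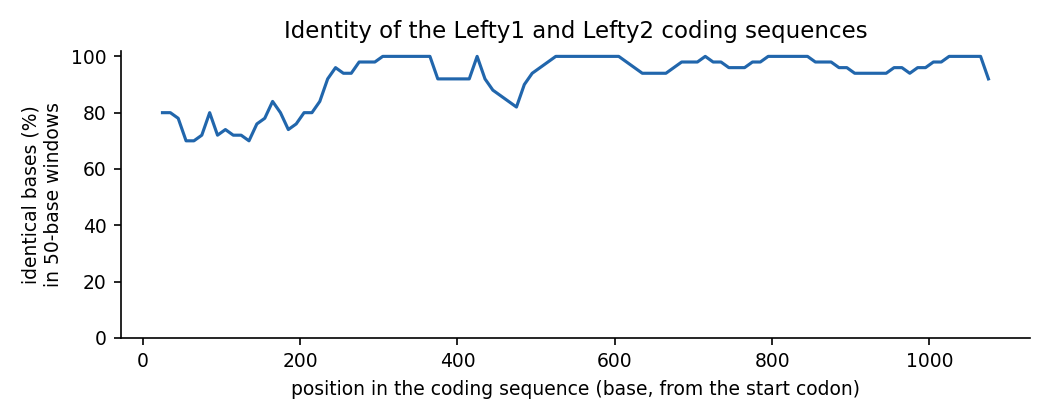
Share of identical bases between the Lefty1 and Lefty2 coding sequences in 50-base windows, by position from the start codon. Identity is lower over the first 276 bases (79.3%) than over the other 828 (96.0%), where some windows are identical throughout.

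The longest stretch that the exons of Lefty1 and Lefty2 share was 161 bases. Of all windows of 31 letters in the exons, 73.1% occurred once in the genome for Lefty1, 70.9% for Lefty2 and 70.7% for Tdgf1. For the other 6 genes the share was 96.0% to 100%. The levels of Lefty1, Lefty2 and Tdgf1 are thus open to loss of reads, and the part of this in their levels was not tested. With the number of windows that occur once as the length, Tdgf1 was at 3866, Nodal at 2170, Lefty2 at 628, Lefty1 at 391 and Foxh1 at 314 per kb, so Lefty1 then stood above Foxh1. This rests on the choice of 31 letters, since the share of Lefty1 exon windows also found in Lefty2 exons fell from 26.9% at 31 letters to 19.4% at 50, 13.3% at 75 and 6.90% at 100.

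PROMPTs are short-lived RNAs that start close to a promoter and run away from the gene. Here they were counted within 1 kb upstream of a start and on the opposite strand. Of the 9 PROMPTs 6 had a level of at least 10, beside 16.0% of the 23257 PROMPTs with reads, and 7 lay above the median PROMPT, which had a level of 0.815. For each gene the PROMPT window was taken here as the 1 kb before its outermost start in Gencode vM21. These windows were not compared with the regions that the authors counted. Smad2, for example, has 7 annotated transcripts, so its PROMPT may have been counted from another start. None of the 9 windows taken here overlaps an annotated gene on the strand of the PROMPT in Gencode vM21.

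The PROMPTs of the antagonists Lefty2 and Lefty1 had the highest levels, although both genes had fewer reads than Nodal. The Lefty2 PROMPT was at 89.7 (counting interval 83.1 to 96.6), at the 98.5th percentile of PROMPTs with reads. The Lefty1 PROMPT was at 61.6, with an interval of 56.2 to 67.4, at the 97.3rd percentile. The Nodal PROMPT followed at 57.6, with an interval of 52.4 to 63.2, at the 97th percentile, and its interval overlapped that of the Lefty1 PROMPT. In the window of the Nodal PROMPT 69.0% of the 31-letter windows occurred once in the genome, against 100% in those of both Lefty genes.

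PROMPTs of Foxh1, Smad3 and Tdgf1 were at 27.2, 21.5 and 19.0, with the intervals of the latter pair, 18.3 to 25 and 16.1 to 22.3, overlapping. The window of the Foxh1 PROMPT also held repeated sequence, since 84.2% of its 31-letter windows occurred once. The Acvr2b PROMPT was at 5.92, with an interval of 4.33 to 7.90. Smad2, which had the highest deposited value of the 9 genes, had a PROMPT at only 0.321, with an interval of 0.0531 to 1.03, at the 34.0th percentile. In the 1 kb taken here for that PROMPT, all 31-letter windows occurred once in the genome. The Cer1 PROMPT was at 0.0816, the value that 2 reads in 2 libraries give.

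Set against the gene, the PROMPT of Lefty1 was at 23.1% and that of Lefty2 at 21.1% of the level per kb of exons, at the 94.2nd and 93.7th percentiles of 11496 genes with a level of at least 10 and PROMPT reads, whose median was 0.858%. The PROMPTs of Foxh1, Nodal and Smad3 were at 9.27%, 2.78% and 1.90%, those of Acvr2b and Tdgf1 at 0.770% and 0.755%, and that of Smad2 at 0.0230%. Against the level per kb of span, the PROMPTs of Lefty2 and Lefty1 were at 48.5% and 44.5%, that of Smad3 at 38.2%, that of Nodal at 9.79% and that of Smad2 at 0.182%, beside a median of 5.40%. Both Lefty genes therefore had a high PROMPT for their own level and Smad2 a low one on either scale, whereas the place of Smad3 depended on the length used. The Lefty gene levels are open to loss of reads, while in the regions taken here for their PROMPTs all 31-letter windows occurred once. The part of this in the Lefty ratios was not tested. The Smad2 PROMPT rests on between 2.49 and 12 reads. The Cer1 ratio rests on 2 PROMPT reads and was not read.

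**Figure D3:**
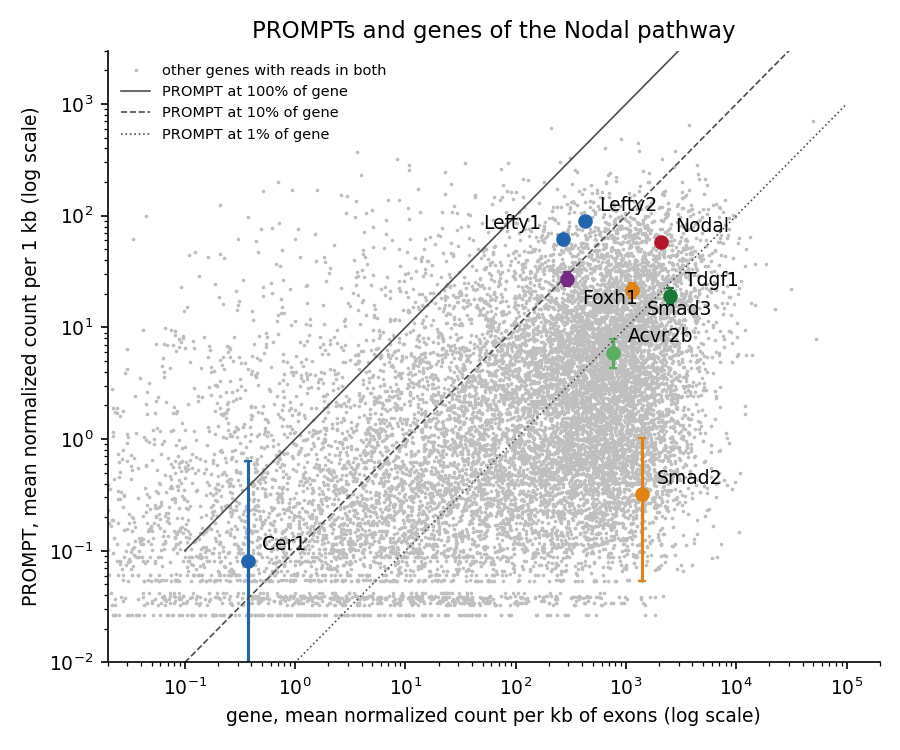
PROMPT level per 1 kb against gene level per kb of exons, both as the authors' mean normalized count over 18 libraries on log axes, for the 9 Nodal pathway genes (coloured, with 95% counting intervals of the PROMPT) and all other genes with reads in both tables (grey). Lines mark PROMPTs at 100%, 10% and 1% of the gene. The Lefty1 and Lefty2 PROMPTs lie above the line of 10%, and the Smad2 PROMPT at 0.0230% lies far below that of 1%.

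The other genes of the pathway were taken from a list of 36 genes by role, Gdf1 at 0 included. Of these, 31 had a level of at least 10, beside 15436 of the 21859 genes listed, 20157 of them with reads. Above the median gene lay 21 of the 36, with a median percentile of 58.7 where 50 is the middle of all genes with reads. Among the ligands 2 of 7 lay above the median. Gdf3, a ligand that also uses Tdgf1, was at 1213 per kb of exons, below Nodal at 2068, and at 627 per kb of span, above Nodal at 588. Tgfb2 was at 174 per kb of exons and at 12.1 per kb of span. On the latter scale it was at the 45th percentile, and 1 of 7 ligands lay above the median. Gdf1, whose product pairs with NODAL, was listed at 0. It overlaps Cers1 on the same strand, which was at 119 per kb of exons, so reads of the shared sequence cannot be told apart, and Gdf1 is named here because its value of 0 was seen. Of the convertases that cleave the NODAL precursor, Pcsk6 was at 4113 per kb of exons and Furin at 95.2, the latter just under the median gene at the 47.6th percentile. By level and per kb of span Furin lay above the median gene, at the 57.8th and 59.9th percentiles. Pcsk6 and Furin lay closer per kb of span, at 113 and 51.9. Pcsk6 overlaps another annotated gene on the same strand.

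Among receptors and co-receptors 4 of 6 lay above the median gene, and 3 of 6 per kb of span, where Tgfbr2 was at the 48.9th percentile. The 4 were the type I receptors Acvr1b and Tgfbr1, at 1674 and 996 per kb of exons, and the type II receptors Acvr2a and Tgfbr2, at 855 and 213. Acvr2b, at 768 per kb of exons, lay below Acvr2a on this scale, and above it per kb of span, at 91.8 against 54.5. All 3 other SMADs lay above the median gene, with Smad7, an inhibitory SMAD induced by the pathway, at 6550, the shared partner Smad4 at 2568, and the inhibitory Smad6 at 1374 per kb of exons. All 6 nuclear partners and repressors did too, among them the corepressors Ski and Tgif1 at 2113 and 1106 per kb of exons and the ubiquitin ligase Trim33 at 1594. Each of these 3 exceeded Foxh1 per kb of exons, where it was at 293. Per kb of span, where Foxh1 was at 232, only Tgif1 of the 3 did, at 666, while Ski was at 171 and Trim33 at 197. All 4 other antagonists and feedback genes lay above the median gene, with Pmepa1, which sequesters SMADs, at 1490, Dand5, a relative of Cer1, at 671, and Fst, which binds activins, at 173 per kb of exons. None of 8 target genes of mesendoderm lay above the median gene, and their levels ran from 5.73 to 357.7, though 2 of them did so per kb of span. Acvr1b and Trim33 each overlap another annotated gene on the same strand. The list is a description of the mean over all conditions, and no test was made on it.

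**Figure D4:**
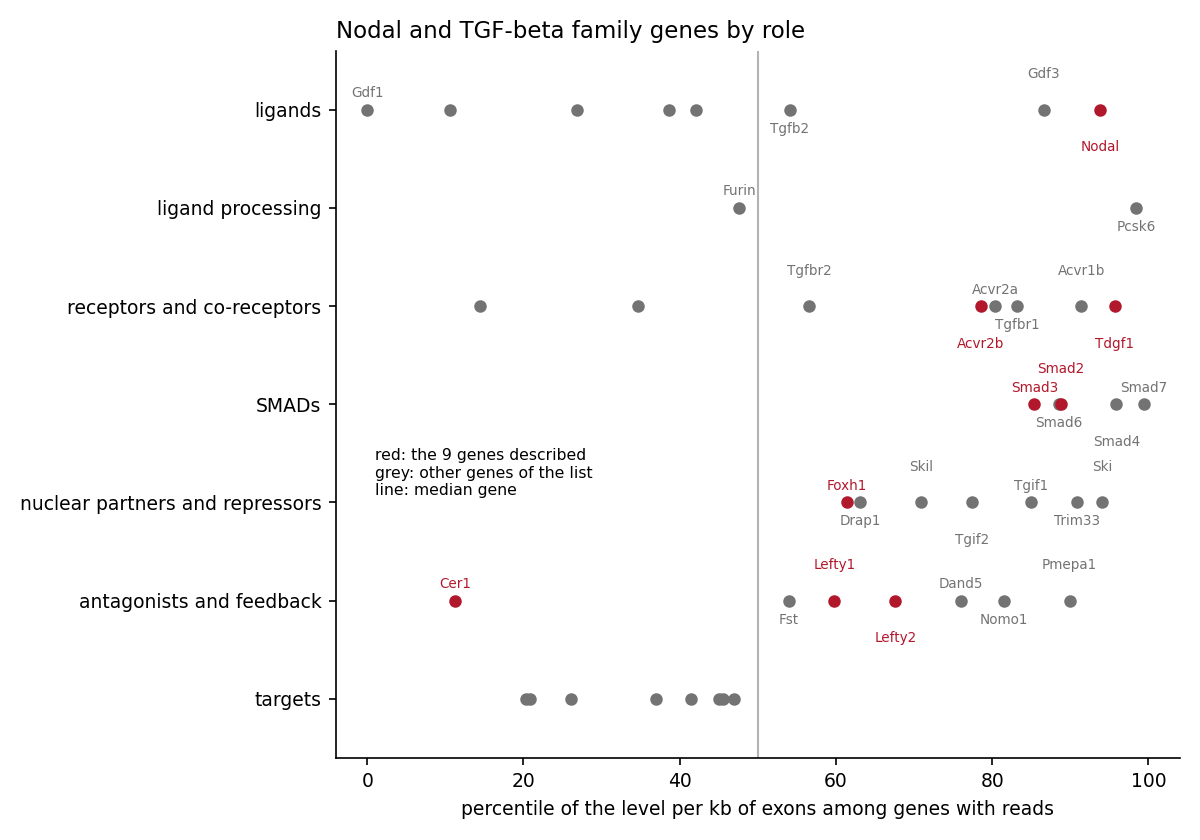
Percentile of the level per kb of exons among genes with reads, for the 9 Nodal pathway genes (red) and 36 other genes of the pathway (grey) by role, with the median gene as a line. All SMADs and nuclear partners lie above the median gene, all 8 target genes below it, and Cer1 stands apart from the other antagonists.

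As landmarks of level, the pluripotency genes Nanog, Pou5f1 and Sox2 were at 6596, 3374 and 2910 per kb of exons. Nanog was at 3.19 times, Pou5f1 at 1.63 times and Sox2 at 1.41 times the Nodal level. Per kb of span the same genes were at 3.52, 2.71 and 4.95 times Nodal. Sox2 overlaps the non-coding gene Sox2ot on the same strand. Transcription of Nodal and Tdgf1 thus lay within a few times that of the core pluripotency genes on the mean over all libraries, while Lefty1, Lefty2 and Foxh1 lay lower per kb of exons.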

How the data were processed

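TT-seq was analysed in 18 libraries, 3 for each of 6 conditions, grouped by their labels. Reads were trimmed by the authors (Trim Galore), aligned with STAR to mm10 where they had 1 place only, and counted by strand with featureCounts (per the methods; the labels' processing notes also name HTSeq and deepTools). The deposited value used here, a signal, is the count divided by DESeq2 size factors and averaged by the authors over all libraries. The deposited tables also hold the authors' log2 fold changes with their errors, p-values and adjusted p-values for depleted against control libraries. These were not used, and no value per library was analysed here, so no test between groups was made.

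Levels were ranked among genes with a value above 0 and divided by length from Gencode vM21, which held 21817 of the 21859 gene IDs, while the authors counted on vM25. Single-read values were sought up to 0.2, where a value had to recur 0.06 times as often as the commonest one. Counting intervals (95%, exact Poisson) took the highest such value for every read, which widens them. On simulated tables the search recovered 18 of 18 values for genes and 17 of 18 for PROMPTs. With counting error alone, the intervals held the true level for 99.3% and 99.6% of features with a level of at least 1. Lower levels, such as those of Cer1, its PROMPT and the Smad2 PROMPT, were not part of this check. Reads carry no molecular identifiers, so intervals cover counting error only. By the single-read values of genes the largest size factor of a library was 5.34 times the smallest, and by those of PROMPTs 4.84 times. The gene levels sum to 55.9 M.

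Promoter windows came from the RefSeq table for GRCm38.p6. The Lefty1 and Lefty2 coding sequences were aligned globally with Biopython, and windows of 31 letters were counted on both strands of 22 chromosomes. The 9 genes and the gene lists were chosen with earlier results of these data known. By the rule for naming, all 9 genes were described, pathway genes at or above the median gene could be named, and Pou5f1, Sox2 and Nanog served as landmarks. Outside the rule, Gdf1 was named after its value was seen, and Supt16, Cers1, T and Eomes were named beside a result. Python 3.11.15, numpy 2.4.6, pandas 2.3.3, scipy 1.17.1, matplotlib 3.10.9 and Biopython 1.88 were used. Other reference sets, lengths, thresholds and motif windows were tried. The tables of eRNAs and other non-coding transcripts were not used, since their regions could not be tied to these genes.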

Additional observations from a re-analysis of the deposited data

How the results depend on the processing

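The median PROMPT level of the 9 genes, 2.78% of the gene level per kb of exons, was 11.7% per kb of gene span and 1.33% with no length, and 2.86% after rescaling by the read values of each table. These medians include the Cer1 ratio, which rests on 2 PROMPT reads and was 22% per kb of exons and 43% per kb of span. The median percentile of measured pathway genes, 67.5, was 59.6 with genes of at least 1 and 75.2 with genes of at least 100. These changes were beyond the counting error of the middle gene. The cut is set on the same level that is ranked, so a higher cut cannot lower this median, and the rise says nothing about the genes. The rescaled PROMPT level moved by less than the counting error. The counts of genes or PROMPTs above the median, of ordered pairs, of pathway genes measured and of single-read values stayed within 1.5 times. Of 36 pairs of the 9 genes, 26 kept their order per kb of span, 32 with no length, 36 with the longest transcript and 35 with unique windows as the length, the last chosen after seeing the data. The genes above the median gene numbered 7, and 5 to 8 under other reference sets, Lefty1 and Foxh1 being closest to it. All 27 percentiles of single genes under other reference sets moved by more than the counting error. The motif counts, given as genes with a match, moved by at most 1 gene. No paired analysis was possible because the values are means over all libraries, which also leaves no replicate to omit. Depth limits the Cer1 gene, the Cer1 PROMPT and the Smad2 PROMPT, which rest on few reads.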
